A study of Mus musculus with 108 samples.

Results

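The chromatin states of 8 fetal liver and oncofetal genes, Afp, Lin28a, Lin28b, Igf2bp1, Igf2bp2, Igf2bp3, Sall4 and Hmga2, were followed in the livers of adult mice. The genes were chosen by name, and all 8 were found among the 26089 genes with a curated RefSeq transcript on chromosomes 1 to 19 and X. For each gene, the state was read in the bin of 200 bp that holds the transcription start site (TSS), in the 21 bins within 2 kb of it, in the gene body and in 50 kb to each side of the gene. Each of the 8 genes had 1 curated TSS, so the choice among its curated transcripts did not move the start. All positions are in mm10 (GRCm38.p6).

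The livers came from C57BL/6 female mice, were fixed in formalin and embedded in paraffin, and were used for ChIP-seq of 4 histone H3 marks. H3K4me3 marks active promoters, H3K27ac active promoters and enhancers, H3K4me1 enhancers, and H3K27me3 is the mark laid down by Polycomb repressive complex 2 on silent genes. The SD 3m group (standard diet, 3 months of age) comprised 8 mice and 30 libraries, the SD 12m group (standard diet, 12 months) 8 mice and 29 libraries, and the CR 12m group (30% caloric restriction begun at 3 months, 12 months of age) 9 mice and 29 libraries. The study merged the libraries of a group before the states were assigned, so each group has a single segmentation, the spread between mice is unknown, and none of the differences given here has a test or an error. Both 12-month groups are compared with the same SD 3m segmentation, and an error in that segmentation would enter both comparisons.

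The segmentation gives each bin 1 of 8 states, named by the study from the marks found in them. States 1 (active TSS) and 2 (flanking TSS) carry H3K4me3 with H3K27ac. State 3 (active enhancer 1) carries H3K27ac with H3K4me1, state 4 (active enhancer 2) a weaker H3K27ac, and state 5 (poised enhancer) H3K4me1 without H3K27ac. State 6 (repressed Polycomb) carries H3K27me3, state 7 (repeats) a weak H3K4me3 with very little H3K27me3, and state 8 (quiescent) none of the marks. A state is a label and not a level, and it says nothing on transcription. The number of reads behind each label is unknown.

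All 8 genes are active in the embryo or the fetal liver and most are low or silent in the healthy adult liver, and several return in liver tumours, hence the name oncofetal. Afp encodes alpha-fetoprotein, the main plasma protein of the fetus, and lies beside albumin in a cluster of related genes. Lin28a and Lin28b encode RNA-binding proteins that block the maturation of let-7 microRNAs, and let-7 in turn targets the mRNAs of Lin28a, Lin28b, Hmga2 and the Igf2bp genes. Igf2bp1, Igf2bp2 and Igf2bp3 encode RNA-binding proteins that stabilise fetal growth mRNAs, among them that of Igf2. Sall4 encodes a zinc finger transcription factor of stem cells and fetal hepatoblasts, and Hmga2 an architectural chromatin protein of dividing embryonic cells.

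Promoter sequences of 6 of the 8 genes were found in the RefSeq table (GRCm38.p6), and 4 of them are shown because their TSS either stood apart from the others (Afp) or differed in state between groups (Igf2bp2, Igf2bp3 and Hmga2). Each is the 250 bases before the TSS, 5′ to 3′ on the strand of the gene. The capitals mark each CG dinucleotide. The Afp sequence is chr5:90490464-90490713 on the plus strand, and the others are on the minus strand (Igf2bp2 chr16:22163300-22163549, Igf2bp3 chr6:49214955-49215204 and Hmga2 chr10:120476470-120476719).
Afp: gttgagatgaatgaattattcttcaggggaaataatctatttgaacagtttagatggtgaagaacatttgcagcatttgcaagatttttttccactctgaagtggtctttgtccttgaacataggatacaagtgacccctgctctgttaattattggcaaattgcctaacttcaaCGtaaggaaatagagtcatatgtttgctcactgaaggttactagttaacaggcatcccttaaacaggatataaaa
Igf2bp2: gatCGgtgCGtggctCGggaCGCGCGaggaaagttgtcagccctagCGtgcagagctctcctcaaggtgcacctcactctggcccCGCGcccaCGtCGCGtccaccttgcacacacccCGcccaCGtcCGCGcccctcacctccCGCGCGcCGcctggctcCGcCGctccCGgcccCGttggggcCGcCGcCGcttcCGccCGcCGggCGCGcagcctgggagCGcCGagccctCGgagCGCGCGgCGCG
Igf2bp3: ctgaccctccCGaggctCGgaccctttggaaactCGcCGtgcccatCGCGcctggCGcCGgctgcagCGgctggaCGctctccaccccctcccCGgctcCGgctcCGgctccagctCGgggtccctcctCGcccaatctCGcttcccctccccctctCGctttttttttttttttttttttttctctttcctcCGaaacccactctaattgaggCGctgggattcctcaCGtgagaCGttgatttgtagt
Hmga2: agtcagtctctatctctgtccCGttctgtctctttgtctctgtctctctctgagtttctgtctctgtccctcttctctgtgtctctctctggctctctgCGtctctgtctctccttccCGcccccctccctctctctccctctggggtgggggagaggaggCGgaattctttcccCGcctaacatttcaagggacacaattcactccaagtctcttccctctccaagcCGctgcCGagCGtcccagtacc

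The Afp sequence held 1 CG, 36% of its bases were G or C, and it had 1 TATAAA, the core of a TATA box, near its 3′ end. Over the 32851 promoter sequences of the table, with both strands searched, 12.4% held TATAAA, and 92.1% held at least 1 CG. The Igf2bp2 sequence lay at the other end, with 40 CG and 77.2% of G or C. As many CG were found in 1.31% of all promoters. Igf2bp3 had 21 CG, a number reached by 16.3% of promoters. Hmga2 had 8, Lin28a 7 and Lin28b 6, close to the median of 6 over all promoters. TATAAA was not found in the 5 sequences other than that of Afp. The 5 genes with a sequence whose TSS was in the Polycomb state in at least 1 group thus ranged from CG-rich (Igf2bp2) to average (Lin28b, with 39.2% of G or C).

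At the TSS, the 8 genes fell into 3 patterns. Igf2bp1, Lin28a, Lin28b and Sall4 were in state 6, the Polycomb state, in all 3 groups. Igf2bp2, Igf2bp3 and Hmga2 were in state 8 or 5 in SD 3m and in state 6 in SD 12m. Afp was in state 3, active enhancer 1, in all 3 groups. State 6 was thus found at the TSS of 4 of the 8 genes in SD 3m, 7 in the SD 12m group and 5 in the CR 12m group, against 11.0%, 14.9% and 12.2% of all 26089 genes in the same order. None of the 8 TSS was in state 1 or 2 in any group, while 28.2% of all genes had their TSS in state 1 or 2 in all 3 groups. The same held at the 59 starts that RefSeq and GENCODE list for the 8 genes, predicted models included, none of which was in state 1 or 2 in any group. The livers were profiled whole, so a mark in few cells and a weaker mark in many cannot be told apart.

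**Figure D1:**
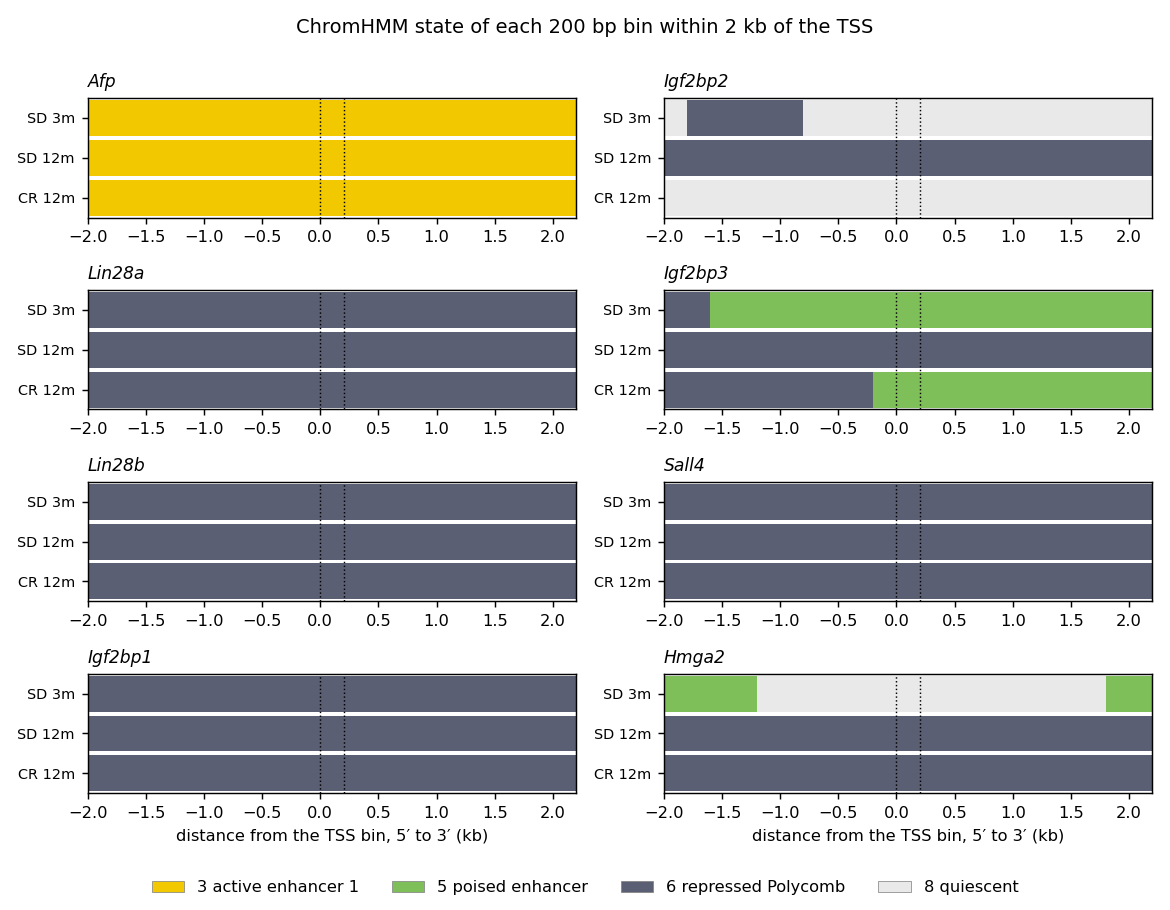
State of each bin of 200 bp (colour) within 2 kb of the TSS of the 8 genes, with the distance from the TSS bin in kb on the x axis, the 3 groups as rows and the TSS bin between dotted lines. Afp is in state 3 throughout, Lin28a, Lin28b, Igf2bp1 and Sall4 are in state 6 throughout, and Igf2bp2, Igf2bp3 and Hmga2 are in state 6 in all 21 bins in SD 12m but not in SD 3m.

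In the first pattern the Polycomb state filled the window around the TSS. All 21 bins of Igf2bp1, Lin28a, Lin28b and Sall4 were in state 6 in all 3 groups, which was the case for 5.10% of all genes. State 6 at the TSS bin in all 3 groups was found in 6.60% of all genes, and 59.8% of the 2881 genes with this state at 3 months had it in both 12-month groups, against 4 of 4 here. Counting these 4, the window read so in 1331 genes, and it did not set them apart from many other genes in the Polycomb state.

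The stretch of state 6 that held the TSS differed greatly in length among the 4 genes. For Igf2bp1 (chr11:95957163-96005944, minus strand) it was 140.2 kb long in SD 3m, 139.8 kb in the SD 12m group and 138.6 kb in the CR 12m group. Over all genes with the TSS in state 6, the median stretch was 32.2, 37.8 and 33.6 kb, and 90 of 100 such genes had a stretch of at most 125.0, 143.8 and 121.0 kb. The Igf2bp1 stretch covered the whole gene, 245 of 245 bins in each group, a state of the gene body found in 3.07% of all genes. It ran on through the downstream 50 kb to B4galnt2, a glycosyltransferase gene whose TSS was also in state 6, and upstream over Gip, the gene of a gut hormone, with its TSS in state 6 in all 3 groups. Its upstream edge lay 24.0, 23.6 and 23.4 kb from the TSS. Beyond it the TSS of Snf8, a housekeeping gene of the endosomal sorting machinery 28.9 kb upstream of that of Igf2bp1, was in state 1 in all 3 groups. The upstream edge of the Polycomb stretch thus differed by less than 1 kb between groups. The nearest bin of state 1 or 2 lay 27.2, 28.4 and 28.4 kb upstream of the Igf2bp1 TSS, with enhancer states between.

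Lin28a (chr4:134003330-134018816, minus strand) combined both kinds of chromatin in 1 short gene of 15.5 kb. State 6 held the TSS, the first exons and up to 33.8 kb upstream, in a stretch of 42.2 kb in SD 3m, 37.0 kb in the SD 12m group and 37.4 kb in the CR 12m group. From 8.4 kb downstream of the TSS in SD 3m, 10.2 kb in the SD 12m group and 8.0 kb in the CR 12m group the 3′ part of the gene, with exons 3 and 4, was in enhancer states. In SD 3m these were 33 bins of state 5 and 4 of state 3, out of 79 bins in the gene. In SD 12m they were 25 bins of state 4 and 3 of state 3, and in CR 12m 34 of state 4 and 5 of state 3. The poised state was absent from the gene at 12 months in both groups. This enhancer block joined the promoter of Dhdds, a dolichol synthesis gene that lies 17.9 kb downstream of the Lin28a TSS, whose own TSS was in state 1 in all 3 groups.

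Lin28b (chr10:45376619-45470201, minus strand), the Lin28 paralog more often found in liver tumours, stood in a region without active states. No bin of the gene body or of its flanks was in states 1 to 5 in any group, and the nearest such bin lay 109.0, 108.2 and 259.0 kb from the TSS. The stretch of state 6 at its TSS was 38.8 kb long in SD 3m, 74.0 kb in the SD 12m group and 57.2 kb in the CR 12m group. Within the gene, state 6 covered 62 of 469 bins (13.2%) in SD 3m, 313 (66.7%) in the SD 12m group and 166 (35.4%) in the CR 12m group, and all other bins were in state 8. The 62 bins in SD 3m were in state 6 in both other groups as well. In SD 12m the stretch reached 33.6 kb into the gene and 3 more stretches lay between 58.6 and 92.6 kb, of which CR 12m had none. Upstream, state 6 covered 132, 202 and 120 of 250 bins, and downstream 43, 0 and 11 of 250, lowest in SD 12m. The share of the whole genome in state 6 had the order of the gene body (9.48%, 14.4% and 10.3%), the numbers of H3K27me3 libraries merged were 7, 8 and 6, and the part of either in these differences was not tested.

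Sall4 (chr2:168748332-168767201, minus strand) had the shortest stretch of the 4 genes, 14.2 kb in SD 3m, 17.6 kb in the SD 12m group and 16.6 kb in the CR 12m group, with the TSS near its middle. In the gene body, 36, 42 and 43 of 96 bins were in state 6 and the rest in state 8. The flanks were unlike each other. Downstream, towards Atp9a, a flippase gene, 130, 153 and 153 of 250 bins were in states 3 to 5, mostly state 3, while upstream there were none, with 129, 97 and 63 bins in state 6. Gm14261, a lncRNA on the opposite strand with its start 1.1 kb inside Sall4, shared the state 6 of the promoter.

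**Figure D2:**
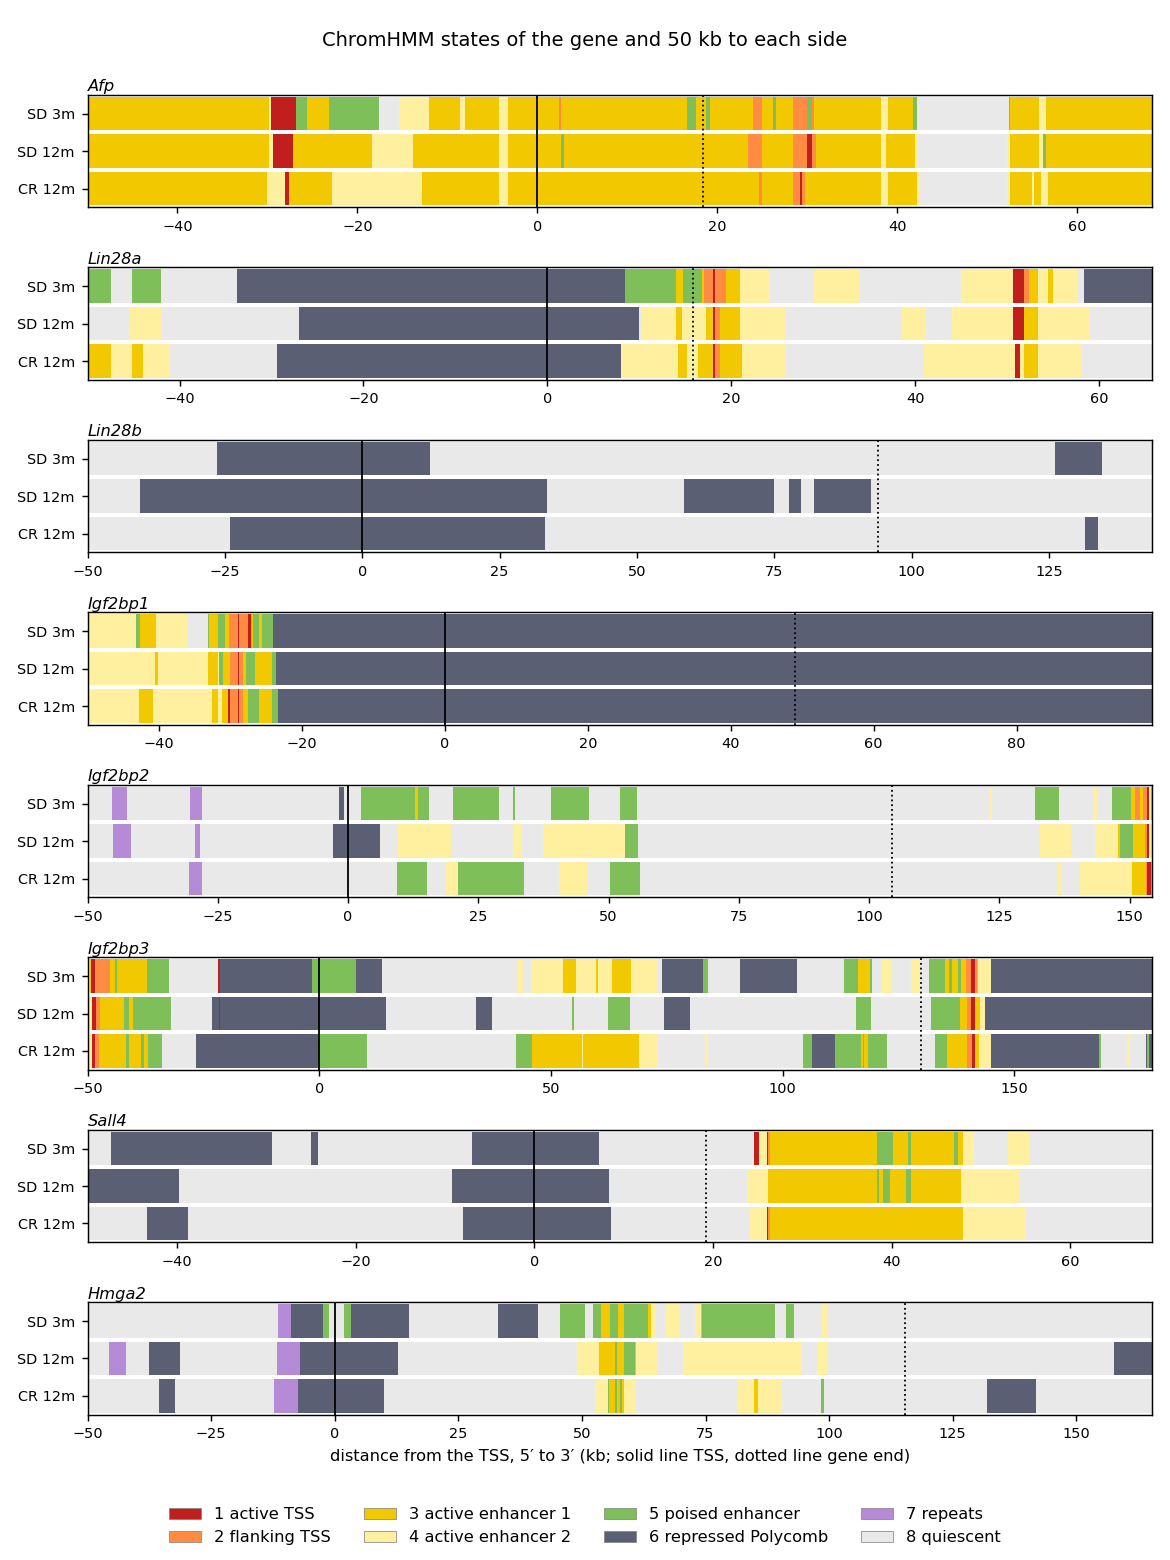
States (colour) along each gene and 50 kb to each side, with the distance from the TSS in kb on the x axis, a solid line at the TSS, a dotted line at the gene end and the 3 groups as rows. The Polycomb stretch of Igf2bp1 keeps its edges, that of Lin28b is longer at 12 months (74.0 and 57.2 kb against 38.8 kb), blocks of enhancer states lie inside Igf2bp2 and Hmga2 away from the TSS, and Afp lies in a block of state 3.

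In the second pattern, the TSS of Igf2bp2, Igf2bp3 and Hmga2 were in state 6 in SD 12m and not in SD 3m. These were 3 of 8 genes, against 6.80% of all genes with the same difference. A TSS in state 5 or 8 at 3 months was found in 9247 genes, of which 18.4% had state 6 in SD 12m, against all 3 here. In CR 12m 1 of the 3, Hmga2, was in state 6, where 12.9% of those 9247 genes were, and 4.94% of all genes. Igf2bp2 and Igf2bp3 were in CR 12m in the state they had in SD 3m. Of the 1773 genes in state 6 in SD 12m and not in SD 3m, 48.2% were not in state 6 in CR 12m, so 2 of 3 is near what all genes gave. The difference between diets at 12 months is the difference between 2 merged segmentations and was not compared with a spread between mice.

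Counting any difference of state at the TSS bin, 3 of the 8 genes differed between SD 12m and SD 3m, against 32.6% of all genes. In CR 12m 1 of the 8 differed from SD 3m, against 34.7%. Between the 12-month groups 2 of the 8 differed, against 26.7%. The 8 genes thus differed about as often as other genes in SD 12m. Each difference involved the Polycomb state, but this rests on 3 genes. The share of differences that involve it was not computed over all genes.

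Hmga2 (chr10:120361268-120476469, minus strand) read 8 in 15 of the 21 bins and 5 in the other 6 in SD 3m, and 6 in all 21 bins in both 12-month groups. In SD 3m, state 6 lay on both sides of this gap, from 8.8 to 2.4 kb upstream and from 3.2 to 15.0 kb downstream. In SD 12m a single stretch of 19.8 kb, and in CR 12m one of 17.4 kb, ran from 7.0 and 7.4 kb upstream across the TSS. The TSS bin thus stood in a gap between Polycomb stretches in SD 3m that neither 12-month segmentation had. The TSS windows most like it over the 63 bins of the 3 groups, with 60 equal bins, were those of Des, the muscle and stellate cell filament desmin, and Ebf1, a B cell transcription factor.

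Igf2bp3 (chr6:49085218-49214954, minus strand) showed the same kind of gap. In SD 3m its TSS was in a stretch of state 5 of 9.6 kb, with state 6 from 21.4 to 1.6 kb upstream and from 8.0 to 13.6 kb downstream. SD 12m had state 6 across it, in a stretch of 35.8 kb. In CR 12m the TSS was in state 5, in a stretch of 10.6 kb, and the upstream stretch of state 6 ended 0.2 kb before the TSS bin. Within 2 kb of the TSS, state 6 took 2, 21 and 9 of the 21 bins in SD 3m, SD 12m and CR 12m. The lncRNA D030074P21Rik, which starts downstream of the TSS on the same strand, matched the state of the promoter, with 32 of its 38 bins in states 3 to 5 in SD 3m, 38 in state 6 in SD 12m and 38 in states 3 to 5 in CR 12m. A predicted model of Igf2bp3 starts a few bins further upstream, and that start was in state 5 in SD 3m and in state 6 in both 12-month groups. The most alike window, with 58 of 63 equal bins, was that of Isl2, a transcription factor of motor neurons.

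Igf2bp2 (chr16:22059009-22163299, minus strand), the family member with the widest expression in adult tissues, was quiescent at the TSS in SD 3m and CR 12m. In SD 3m, 5 bins of state 6 lay from 1.8 to 0.8 kb upstream. In SD 12m the TSS was in a stretch of state 6 of 9.0 kb, and in CR 12m no bin of the gene or of its flanks was in state 6. The CG-rich promoter shown above therefore carried the Polycomb label in SD 12m and the quiescent label in the other 2 groups. Chga, the secretory granule protein chromogranin A, had 62 of 63 equal bins, as did A930003O13Rik and Gm12853.

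Pooled over the 8 genes, state 6 took 54.2% of the 168 bins within 2 kb of the TSS in SD 3m, 87.5% in the SD 12m group and 67.9% in the CR 12m group. Over all genes it took 11.6%, 15.0% and 12.3%. The remaining 21 bins in SD 12m were those of Afp. Of these bins 33.3% differed from SD 3m in the SD 12m group and 19.6% in the CR 12m group, against 37.2% and 38.2% over all genes, and the median over the 8 genes was 0% in both, since 5 of them did not differ in any bin of the window.

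Afp (chr5:90490714-90508907, plus strand) was the exception in every window. Its TSS and all 21 bins around it were in state 3 in all 3 groups, which was the case for 1.30% of all genes, and 338 other genes had the same window. Across the gene body, state 3 covered 86, 90 and 92 of 92 bins. State 5 took 5 bins in SD 3m and 2 in SD 12m, and 1 bin of state 2 lay 2.4 kb downstream of the TSS in SD 3m. No bin of the gene or its flanks was in state 6 in any group.

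State 3 also held most of the sequence between Afp and the neighbouring genes of the albumin cluster, which are expressed in adult hepatocytes, but less of those genes themselves. The 14.1 kb between Alb and Afp, where the enhancers of Afp are known to lie, were in state 3 in 53, 65 and 60 of 71 bins and in state 4 in the others. The 10.0 kb between Afp and Afm, the afamin gene, were in state 3 in 42, 43 and 49 of 51 bins. The TSS of Afm was in state 3 in all 3 groups, that of Alb in state 4, and that of Gc, the vitamin D binding protein gene of the same family, in state 1. In the gene body of Alb, state 3 took 15%, 55% and 30% of the 80 bins, state 1 took 14, 11 and 2 bins, and in SD 3m 34 bins were in state 5 and 11 in state 8. In Afm, state 3 took 100, 101 and 106 of 174 bins, with 51, 50 and 49 bins in state 8. The nearest bin of states 1 or 2 was 23.4 and 24.6 kb downstream of the Afp TSS in SD 12m and CR 12m, between Afp and the start of Afm. So the Afp promoter lacked the H3K4me3 states in a block with H3K27ac and H3K4me1, and the state at its TSS was that of most of the sequence between its neighbours.

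The gene bodies of Igf2bp2, Igf2bp3 and Hmga2 held enhancer states that mostly lay outside the 2 kb around the TSS. The TSS of Igf2bp3 was itself in state 5 in SD 3m and CR 12m, in stretches reaching 8.0 and 10.4 kb into the gene. In SD 3m the first state 5 inside the gene began 1.8 kb from the TSS in Hmga2 and 2.4 kb in Igf2bp2. In Igf2bp2 every stretch of states 3 to 5 of at least 3 kb lay in intron 2, which spans 72.1 kb, and in Hmga2 every such stretch lay in intron 3, of 88.0 kb. Between SD 3m and SD 12m both genes had a similar total of bins in states 3 to 5 and differed in the kind of enhancer state. In Igf2bp2, 164, 149 and 161 of 522 bins were in states 3 to 5. State 5 took 161 of them in SD 3m, 12 in the SD 12m group and 121 in the CR 12m group, and state 4 took 0, 137 and 40. Between SD 3m and SD 12m, 69 bins read 5 and then 4, 62 read 5 and then 8, and 65 read 8 and then 4. The enhancer states of Igf2bp2 thus differed in place as well as in kind. Of the bins of the gene, 73 were in states 1 to 5 in all 3 groups and 250 in at least 1.

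In Hmga2, 206, 213 and 89 of 577 bins were in states 3 to 5. State 5 took 154, 13 and 8 of them and state 4 took 32, 175 and 65. The extent was thus similar in SD 3m and SD 12m and smaller in CR 12m, and the poised state prevailed in SD 3m alone. In SD 12m a single stretch of state 4 ran from 70.4 to 94.6 kb downstream of the TSS. In CR 12m the longest stretch of enhancer states ran from 81.6 to 90.4 kb. The lncRNA 9230105E05Rik on the other strand lies in this intron, and all 17 of its bins were in states 3 to 5 in each group. Over all genes, state 5 was likewise less frequent at the TSS at 12 months (6.35% in SD 3m, 1.86% in the SD 12m group and 1.76% in the CR 12m group) and state 4 more frequent (5.39%, 13.0% and 13.2%), so the direction was the same over all genes. The numbers of H3K4me1 libraries merged (8, 6 and 9) and of H3K27ac libraries (8, 7 and 9) also differed, and their part was not tested.

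Igf2bp3 had the largest difference in extent. States 3 to 5 covered 240 of 649 bins (37.0%) in SD 3m, 41 bins (6.32%) in SD 12m and, under caloric restriction, 276 bins (42.5%). The main block, from 45.6 to 72.8 kb downstream of the TSS, was 27.2 kb long in SD 3m, with 100 bins of state 4 and 36 of state 3. In CR 12m it was 30.8 kb long, with 113 bins of state 3. SD 12m had 23 bins of state 5 in its place, in a stretch of 4.6 kb, and 2 more bins of state 5 before it. State 6 covered 134, 117 and 24 bins of the gene. The 3′ part of Igf2bp3 overlaps, on the other strand, a longer model of Malsu1, a mitochondrial ribosome gene whose TSS was in state 1 in all 3 groups. In the 379 bins outside that model, 184, 25 and 206 were in states 3 to 5, so the order of the groups was the same there.

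**Figure D3:**
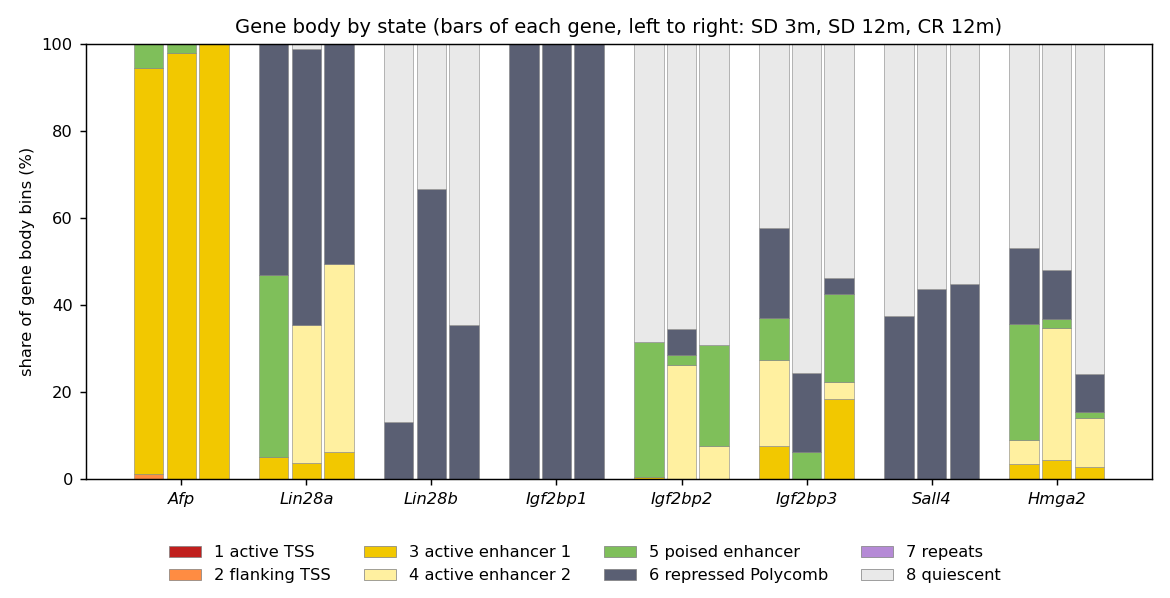
Share of the bins of each gene body (y axis, %) in each state (colour), with 3 bars per gene for SD 3m, SD 12m and CR 12m from left to right. Igf2bp1 is in state 6 throughout, state 6 covers 13.2%, 66.7% and 35.4% of Lin28b, the main enhancer state of Igf2bp2 and Hmga2 is state 5 in SD 3m and state 4 in SD 12m, and the enhancer states of Igf2bp3 are at 6.32% in SD 12m against 37.0% and 42.5%.

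Pooled over the 8 gene bodies, 41.4% of the 2729 bins differed from SD 3m in the SD 12m group and 32.1% in the CR 12m group, against 29.4% and 26.9% over all genes. The median gene of the 8 differed in 43.6% and 22.9% of its bins, and the median of all genes in 25.0% and 26.3%. The pooled value thus lay above that of all genes in both comparisons, but the median did so in the SD 12m group and not in the CR 12m group. The range was wide, from 0% in Igf2bp1 in both groups to 53.5% in Lin28b in SD 12m and 49.3% in Igf2bp3 in CR 12m. State 6 covered 22.7% of the pooled gene bodies in SD 3m, 31.6% in the SD 12m group and 20.8% in the CR 12m group, against 8.32%, 12.7% and 9.55% over all genes. Lin28b held 313 and Igf2bp1 245 of the 862 Polycomb bins of SD 12m. A bin with states 1 to 5 in SD 3m and state 6 in SD 12m was found 76 times, 42 of them in Igf2bp3 and 19 in Igf2bp2. With CR 12m in place of SD 12m there were 7, all in Hmga2. This transition was not counted over all genes, where state 6 was also more frequent in SD 12m (12.7%) than in CR 12m (9.55%). Whether the counts of 76 and 7 are particular to the 8 genes is therefore unknown. Between the 12-month groups 32.6% of the bins differed, and 51.3% had the same state in all 3 groups. Neither share was computed over all genes, so neither can be read as particular to the 8 genes.

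Pooled over the 8 genes, the flanks differed less than the gene bodies. In Afp, Igf2bp1 and Sall4 the flanks differed more than the gene body in both 12-month groups. Over the 50 kb to each side, 20.7% of the bins differed from SD 3m in the SD 12m group and 20.2% in the CR 12m group, with medians over the 8 genes of 20.3% and 19.3%, against medians of 29.8% and 31% over all genes. Lin28a had the highest share in both groups (35.2% and 36.4%). There, state 6 began 58.4 kb downstream of the TSS in SD 3m, and neither 12-month group had state 6 in the downstream flank. Igf2bp1 in SD 12m (10.2%) and Lin28b in CR 12m (8.80%) had the lowest. Among the neighbours with a TSS in the flanks or the gene body, Dhdds, Hmgn2, Snf8 and Malsu1 were in state 1 in all 3 groups and Gip, B4galnt2, Gpnmb and Gm14261 in state 6, and the differences were those of Tra2a (state 1 in SD 3m and 4 at 12 months), Senp2 (4, 4 and 1), Crybg2 (5, 8 and 3) and 9230105E05Rik (5, 4 and 4).

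Lists of known regulators of Afp and of let-7 were read at the TSS in the same way. Of 10 regulators of Afp in liver, 7 had the TSS in state 1 or 2 in both SD groups and 8 in CR 12m. The others were in state 3 or 4, and none was in state 6. Over all genes, state 1 was found at 30.2%, 29.8% and 25.9% of TSS and state 2 at 9.86%, 4.91% and 4.82%. In SD 12m 0 of the 10 differed from SD 3m, against 32.6% of all genes. In CR 12m 5 differed (Zfhx3, Foxa1, Foxa2, Foxa3 and Nr5a2), against 34.7%. Zhx2, Zbtb20 and Zfhx3, which repress Afp after birth, were in state 1, 2 and 2 in SD 3m and SD 12m and in 1, 2 and 1 in CR 12m. Hnf4a, a hepatocyte nuclear receptor, was in state 3 in all 3 groups, as Afp was. Of the 8 genes of microRNA processing and let-7 control, 7, 6 and 7 were in state 1, among them Tut4, Tut7 and Dis3l2, which tail and degrade the let-7 precursor held by Lin28. Dgcr8, another gene of this list, was in state 4 in SD 12m and in state 1 in the other groups. Trim71, a let-7 target of stem cells, was in state 6 in all 3 groups. All 21 bins of its window were in this state, as in Lin28a and Lin28b.

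The let-7 microRNAs, which oppose Lin28a, Lin28b, Hmga2 and the Igf2bp genes, were read at the start of the precursor. Of 11 let-7 genes, 6 were in state 3 in all 3 groups (Mirlet7a-1, Mirlet7b, Mirlet7c-2, Mirlet7d, Mirlet7f-1 and Mirlet7g), Mirlet7i was in state 1, and Mirlet7a-2 in state 6. The remaining genes were Mirlet7c-1 (5, 8 and 8), Mirlet7e (5, 5 and 4) and Mirlet7f-2 (8 in each group). Mirlet7a-1, Mirlet7d and Mirlet7f-1 are neighbours on chromosome 13, and Mirlet7b and Mirlet7c-2 on chromosome 15, so the 6 are not independent. State 3 at the TSS was found in 6.43%, 8.82% and 13.3% of all genes. The mature sequences of 10 of these loci were matched in RefSeq. They held 8 different sequences with 1 shared seed, which stands in capitals (bases 2 to 8) in the 3 shown here to let it be read beside loci in state 3 (let-7a and let-7g) and state 1 (let-7i). The locus of let-7a is Mirlet7a-1 (chr13:48538239-48538260, minus strand), that of let-7g is Mirlet7g (chr9:106178846-106178867, plus strand) and that of let-7i is Mirlet7i (chr10:122985698-122985719, minus strand).
let-7a-5p: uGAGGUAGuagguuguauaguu
let-7g-5p: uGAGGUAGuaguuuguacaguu
let-7i-5p: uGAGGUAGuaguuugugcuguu

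Of 3 paralogs, 2 differed from the gene of their family in the set. Hmga1 was in state 1 in all 3 groups, in contrast to Hmga2. Sall1 was in state 1, in contrast to Sall4, and Sall2, like Sall4, in state 6 with all 21 bins of the window.

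**Figure D4:**
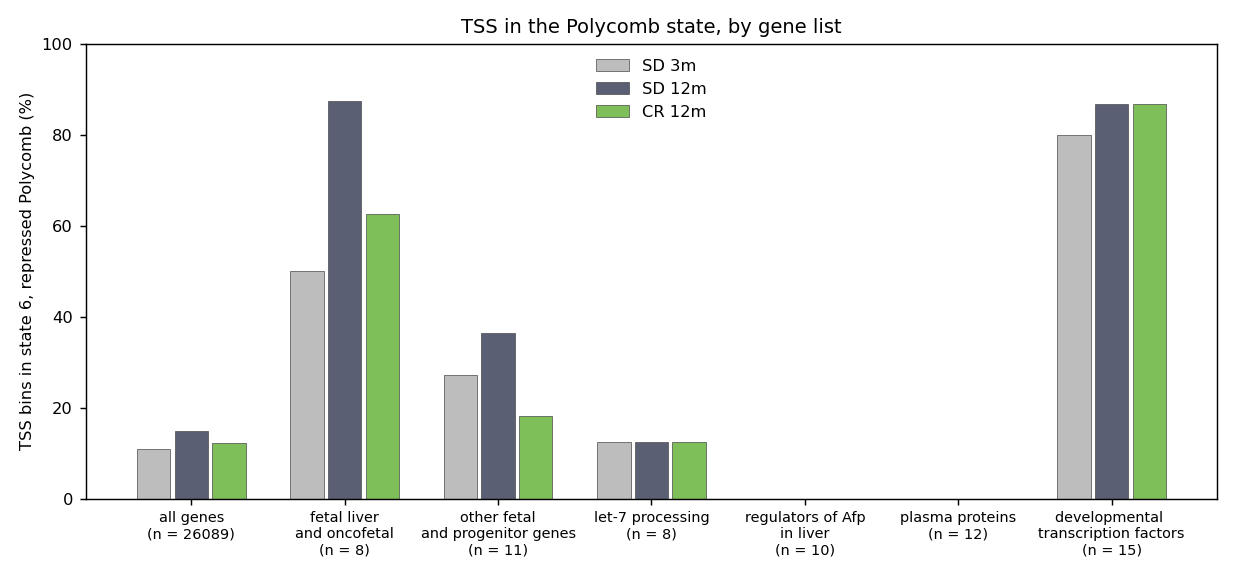
Share of TSS bins in state 6 (y axis, %) in SD 3m, SD 12m and CR 12m for all 26089 genes, the 8 fetal liver and oncofetal genes and 5 lists of other genes, with the number of genes under each. The 8 genes (50%, 87.5% and 62.5%) lie above all genes, and the developmental transcription factors (80%, 86.7% and 86.7%) are at a like share in SD 12m and higher in the other groups, and no regulator of Afp or plasma protein gene is in state 6.

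A pair of lists of opposite kind framed these values. Of 12 genes of plasma proteins made by adult hepatocytes, such as Apoa1 and Fga, none had its TSS in state 6 in any group, and 7, 7 and 5 were in state 1 or 2. Of 15 developmental transcription factors that are silent in the liver, such as Pax6 and Neurod1, 12 were in state 6 in SD 3m and 13 in each 12-month group. Among these 15, Nkx2-5 was in state 6 in both SD groups and in state 5 in CR 12m. The label of the tissue was checked with marker genes. All 6 hepatocyte markers were in states 1 to 4 in all 3 groups. Of the 5 Kupffer cell markers 2, 4 and 4 were in state 6, and of the 4 stellate cell markers 0, 2 and 1. The part of the cell mixture in the states of the 8 genes was not tested.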

How the data were processed

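ChIP-seq of 4 histone marks was available for 108 libraries from 31 mice, of which the 88 libraries of the groups SD 3m, SD 12m or CR 12m entered the segmentations used. SD 6m was not analysed here. Per the submitters' processing notes and the methods of the study, reads were aligned by the authors with BWA 0.6.2-r126 (mm10), handled with SAMtools 0.1.18 and filtered for mapping quality and duplicates. They pooled the libraries of each mark by group and trained 1 ChromHMM model of 8 states. The deposited value is thus a state label per 200 bp bin, with no count, signal or score, and the depth behind it is unknown. All 13168874 bins of each segmentation were used. The last bin was the last whole bin in GRCm38.p6 on all 20 chromosomes.

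TSS and gene bodies were those of the longest curated RefSeq transcript. Python 3.11.15 (numpy 2.4.6, pandas 2.3.3) gave the counts and shares of bins, drawn in matplotlib 3.10.9. The functions were tested on simulated segmentations. With 1 segmentation per group no test was made, and counts at the TSS and pooled shares are read beside those of all genes where these were computed. The genes and lists were chosen with earlier results of these data known. Named genes are the 8 genes, the list genes, neighbours with a TSS in the flanks, and up to 3 genes with the most alike window. Some list genes are not reported here. The alternatives were other transcripts, windows, flanks, 5 classes of states and stretches of at least 1 kb.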

Additional observations from a re-analysis of the deposited data

How the results depend on the processing

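The 12 counts and shares were recomputed under 91 alternatives, and 69 stayed close to the value given (counts within 1.5 times, shares within the Wilson 95% interval over bins, which counts bins and not mice). The 2 other rules for a curated transcript gave the same values in all 24 cases, which are among the 69. Each gene had 1 curated TSS, so at the TSS these cases could not differ and say nothing on stability. In the gene bodies and flanks only Sall4 and Hmga2, with more than 1 curated transcript, could have differed. Of 37 alternatives for the counts of TSS bins, these fixed cases included, 36 stayed. The exception was chosen after seeing the data: with the most upstream start of any RefSeq or GENCODE model, 2 of the 8 genes and not 1 differed between CR 12m and SD 3m, the second being Igf2bp3. As medians over the 8 genes, the shares of state 6 within 2 kb of the TSS were 61.9% in SD 3m and 100% in each 12-month group (SD 12m 100%, CR 12m 100%), and the shares of gene body bins that differed from SD 3m were 43.6% in SD 12m and, for CR 12m, 22.9%. With 5 classes of states, the gene body shares were 31.7% and 22.9% and the flank shares 16% and 15.9%. Without bins in state 8 in all 3 groups they were 60.9% and 47.3% in the gene bodies and 30.1% and 29.4% in the flanks. For the flanks, stretches of at least 1 kb gave 19.2% and 18.4%, flanks of 20 kb 11.6% and 11.3%, flanks of 100 kb 22.7% and 22.5%, and flank bins outside every annotated gene 18.3% and 14.4%. The lower shares with 5 classes and the higher ones without shared state 8 follow from how these alternatives count. The cause of the others was not tested. No paired analysis was possible because each group has 1 merged segmentation. Depth, which is unknown, limits the detection of a mark in state 8.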

Other observations

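Other genes of the fetal liver and of liver progenitors were spread over more states than the 8 genes above. Of 11 such genes, the TSS was in state 6 in 3 (SD 3m), 4 (SD 12m) and 2 (CR 12m). Igf2, the fetal growth factor whose mRNA the Igf2bp proteins bind, and Gpc3, a cell surface proteoglycan of fetal liver and liver tumours, were in state 6 in all 21 bins within 2 kb of the TSS in all 3 groups. H19, the imprinted RNA next to Igf2, had 21, 16 and 0 of these bins in state 6. Dlk1, a hepatoblast surface protein, had 0, 21 and 0, the order of groups seen in Igf2bp2. Cd24a, Sox9 and Mycn were in state 7 in SD 3m and in none of them was the TSS in state 6 in any group.

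Marker genes of the other liver cells took several patterns in the number of bins in state 6 within 2 kb of the TSS. Of the stellate cell markers, Lrat, which makes the retinyl esters these cells store, had 0, 21 and 0 bins, Des 0, 21 and 21, Pdgfrb 0, 4 and 0, and Reln 0 in each group. Of the Kupffer cell markers, Adgre1, the F4/80 antigen, had 0, 21 and 0, Cd5l 0, 21 and 21, and Timd4, a receptor for dying cells, 0, 0 and 21. Clec4f had 21 in each group, and Vsig4 17, 21 and 21. Of the 5 cholangiocyte markers, Krt7 had 0, 21 and 0 bins, Krt19 0, 0 and 3, and Epcam, Sox9 and Spp1 0 in each group. At the TSS bin, Krt7 was in state 6 in SD 12m and in state 8 and 4 in SD 3m and CR 12m. None of the 5 endothelial markers was in state 6 at the TSS bin in any group. Within 2 kb of it, Cdh5 had 0, 5 and 0 bins in state 6, Kdr 2, 0 and 1, and Pecam1, Stab2 and Lyve1 0 in each group.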
